A study of Mus musculus with 6 samples.

Results

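The oxidative phosphorylation genes of the mouse hippocampus were examined, namely the protein-coding genes whose symbols mark them as subunits of the respiratory chain complexes I to IV or of the ATP synthase (complex V), together with every protein-coding gene of mitochondrial DNA. They were chosen by symbol alone (Nduf subunits, Sdha to Sdhd, Uqcr, Cox4 to Cox8 subunits, Atp5 and mt- genes). The choice gave 97 genes of the 52550 in the count table, of which 84 were encoded in the nucleus and 13 in the mitochondrion. Complex I held 37 nuclear and 7 mitochondrial genes, complex II 4 nuclear genes, complex III 8 and 1, complex IV 18 and 3, and complex V 17 and 2. Another 36 symbols fitted the pattern but were not protein-coding and were left out.

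The data were 6 RNA-seq libraries of hippocampus. The labels call 3 of them wild type (the control group here) and 3 hnRNP DL KD (the L-DL KD group). L-DL is the long isoform of the RNA-binding protein hnRNP D-like, encoded by Hnrnpdl. The sources used here do not say how many mice gave the libraries of a group. All were male C57BL/6 J mice that had been injected in the CA1 area at 8 weeks of age with adeno-associated virus (AAV). The control virus carried a control shRNA and the other virus carried L-DL shRNAs, expressed from H1 promoters beside a zsGreen marker under the CamkIIα promoter, which is active in excitatory neurons. By the study's methods the control virus had the higher titre, so that the effects of the shRNAs and of virus dose cannot be told apart. The labels of the L-DL KD group write hnRNP DL-/- in one field and KD in others. From 16052529 to 17913064 reads per library were counted on genes.

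Hnrnpdl itself was not called lower in the L-DL KD group, whose libraries are named KD-labelled below. It had 176, 183 and 170 CPM (the read count scaled to the TMM-adjusted size of its library) in the control libraries and 217, 150 and 173 CPM in the others, and the groups overlapped. The log2 fold change was 0.03 (SE 0.12), with a Benjamini-Hochberg adjusted p of 0.898 in the quasi-likelihood test of edgeR. The counts do not separate its isoforms. Every direction below is that of the KD-labelled relative to the control libraries. The 10 microglia markers examined were all higher there, with a summed level of 1350 to 1689 CPM in the controls and 2835 to 3650 CPM in the KD-labelled libraries. Of 10 neuron markers, 9 were lower and 1 (Nefl) was higher, and their sum lay at 8673 to 9244 CPM in the controls against 5240 to 6070 CPM. In bulk tissue, fewer cells of a type and less RNA per cell cannot be told apart, and the part of these shifts in the results below was not tested.

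Oxidative phosphorylation makes most of the ATP of neurons. Complexes I and II pass electrons from NADH and succinate to ubiquinone, complex III passes them on to cytochrome c and complex IV to oxygen, while complexes I, III and IV pump protons whose return drives the ATP synthase. All complexes but complex II are built from subunits of both genomes, so that mitochondrial DNA, which is read as long polycistronic transcripts, and scattered nuclear genes supply parts of the same machines.

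Higher expression was called among nuclear members and not among mitochondrial ones. Among 82 nuclear members that passed the count filter, 31 were higher and 4 were lower in the KD-labelled libraries at an adjusted p under 0.05, while of 12 mitochondrial members none was higher and 1, mt-Co3, was lower. At an unadjusted p under 0.05 there were 2 mitochondrial members, both lower, against 41.8% of all genes. The filter of at least 10 counts in at least 3 libraries removed Cox7b2, Cox8c and mt-Atp8. Over all 17621 genes tested, 30.5% were called in either direction, 15.6% as higher and 15.0% as lower, while 37.8% of the nuclear members were called higher and 4.88% lower. The median log2 fold change was 0.15 over the nuclear members tested, -0.13 over the mitochondrial members and 0.01 over all genes tested. The mitochondrial median was -0.04 over the 7 genes with a mean of at least 1000 counts and -0.37 over the 5 tested genes with fewer, each of which has a near-identical nuclear copy. Leaving out control replicate 1, 2 or 3 lowered the count of members called higher from 31 to 18, 13 and 13. Over all genes tested, the share called higher fell from 15.6% to 10.65%, 10.36% and 10.19%. Leaving out KD-labelled replicate 1 raised the count of members called lower from 5 to 10, and the share of all genes called lower from 15.0% to 18.79%. Among the members called, 9 of 31 higher and 3 of 5 lower kept their call with each library left out in turn. These were Ndufa4l2, Ndufb4, Ndufb7, Ndufs4, Sdhd, Uqcr11, Atp5c1, Atp5g2 and Atp5g3 among the higher and Ndufv1, Ndufs3 and Ndufa10 among the lower members. The libraries of the groups did not overlap for 43 higher and 6 lower members of the 94 tested, against 23.8% and 23.4% (47.2% in all) of all genes tested.

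Complexes III, IV and V held higher calls and no lower ones among their nuclear genes, and complex I held both. In complex III, 5 of 8 nuclear genes were higher (62.5%) and none was lower. Complex V had 9 of 17 higher (52.9%) and none lower, and complex IV had 5 of 16 tested higher (31.25%) and none lower. In complex I, 11 of 37 were higher (29.7%) and 4 were lower (10.8%), and in complex II 1 of 4 was higher (25.0%). Over all genes tested, 15.6% were called higher, 15.0% lower and 30.5% in either direction. The median log2 fold change of the tested nuclear genes was 0.05 for complex I, 0.08 for complex II, 0.27 for complex III, 0.15 for complex IV and 0.30 for complex V.

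**Figure D1:**
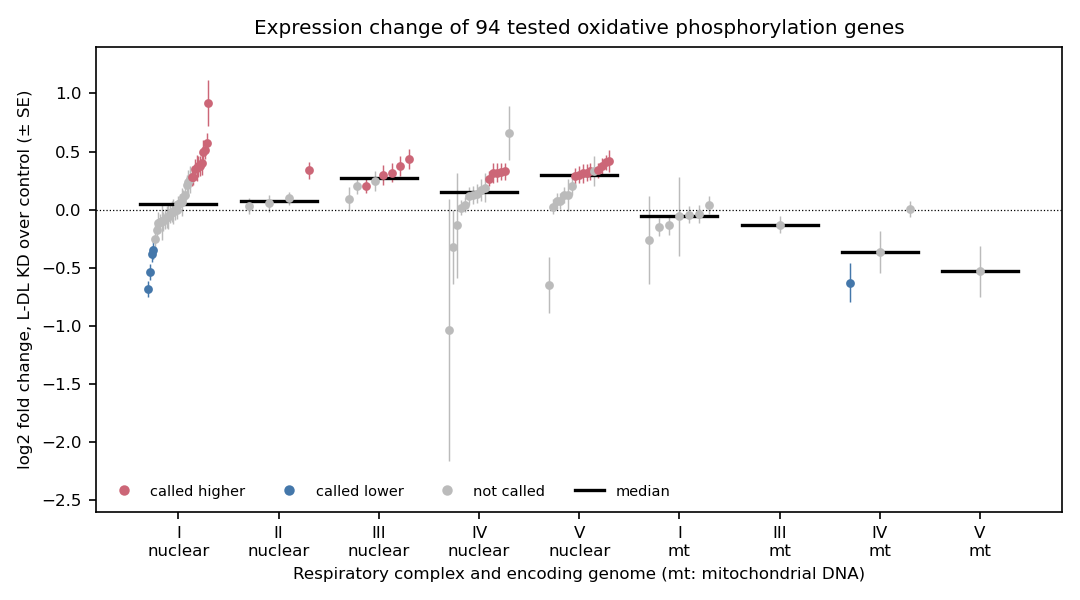
Log2 fold change of each of the 94 tested members (point, with its standard error) by complex and by the genome that encodes it, with the median as a black line. Nuclear genes of complexes III and V lie mostly above 0 with medians of 0.27 and 0.30, nuclear complex I genes spread from -0.68 to 0.92, and the mitochondrial genes lie at or below 0.04.

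The summed expression of the nuclear members was 7425, 7164 and 7224 CPM in the control libraries and 8010, 8219 and 8573 CPM in the KD-labelled libraries, and the groups did not overlap. The ratio of the group means was 1.14. These sums are described without a test. The 13 mitochondrial members together had 40838, 39443 and 42049 CPM in the controls and 40678, 38263 and 40327 CPM in the KD-labelled libraries, where the groups overlapped and the ratio of means was 0.975. As a share of all gene counts, the mitochondrial members took 4.03% ± 0.0920 (SD, n = 3) over control libraries and 4.02% ± 0.164 (SD, n = 3) in the other group. Nuclear members had 0.178 ± 0.00573 counts (SD, n = 3) for each mitochondrial count in the control group and 0.208 ± 0.00974 (SD, n = 3) in the KD-labelled libraries. On the log2 scale this ratio went from -2.49 to -2.27, and each KD-labelled library lay above each control.

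The sums were also taken for the nuclear genes of each complex, without their mitochondrial partners. The nuclear genes of complex V went from 2726 ± 73.8 CPM (SD, n = 3) to 3315 ± 129 CPM (SD, n = 3), those of complex III from 611 ± 14.9 to 735 ± 35.5 CPM, those of complex IV from 1300 ± 51.4 to 1480 ± 65.4 CPM and those of complex II from 630 ± 11.3 to 680 ± 9.40 CPM, and in each of these the groups did not overlap. The nuclear genes of complex I overlapped between the groups, at 2004 ± 48.7 CPM and 2058 ± 51.1 CPM. The mitochondrial genes, which held more reads than the nuclear genes in complexes I, III and IV, overlapped in every complex that has them, at 16095 ± 606 and 15599 ± 864 CPM in complex I, 6967 ± 254 and 6363 ± 302 CPM in complex III, 17689 ± 470 and 17777 ± 329 CPM in complex IV and 25.7 ± 1.96 and 17.7 ± 5.94 CPM in complex V. Within complex I, the 7 nuclear core genes, which encode the conserved subunits that carry the flavin, the iron-sulfur clusters and the quinone site, had 635, 625 and 623 CPM in the controls and 557, 549 and 568 CPM in the KD-labelled libraries. The sum of the other 30 nuclear genes of complex I went the other way, from 1420, 1373 and 1336 CPM to 1463, 1489 and 1548 CPM. Neither sum overlapped between the groups. Of the 30 genes, 12 had a negative log2 fold change. Among the KD-labelled libraries, the nuclear sum was lowest in replicate 1 and highest in replicate 3, and so were the sums of the microglia markers and of the 84 cytosolic ribosomal protein genes. The controls did not share this order. Control replicate 2 had the lowest nuclear sum and the highest sums of the microglia markers and of the ribosomal protein genes. A link between these sums was not tested.

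**Figure D2:**
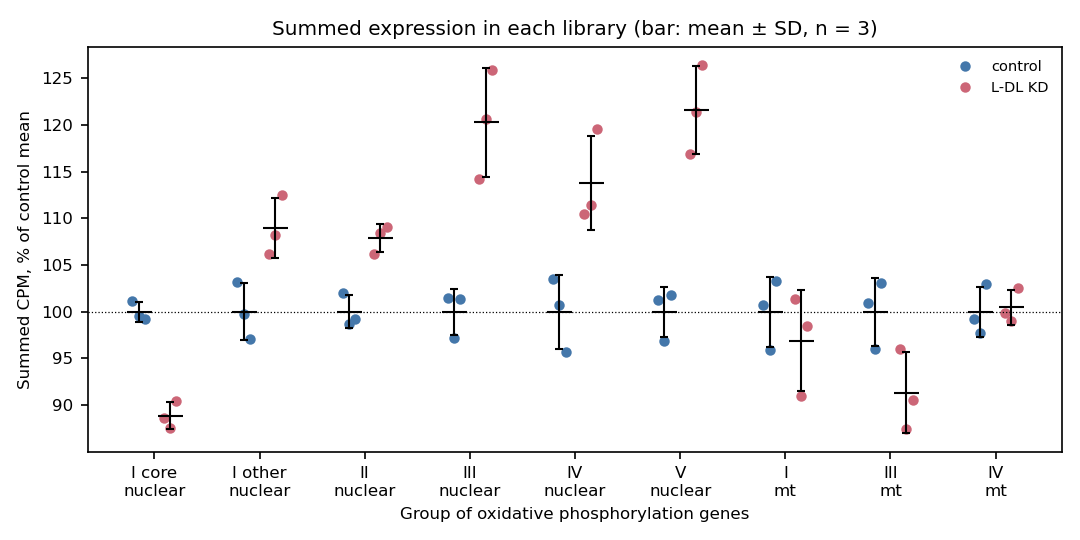
Summed CPM of each group of members in each library, as a percent of the control mean, for the 3 control libraries and the 3 KD-labelled libraries, with mean and SD. Nuclear complexes II to V lie above the controls in every KD-labelled library, the nuclear core of complex I lies below them, and the mitochondrial (mt) groups overlap.

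Within the nuclear core of complex I, 3 of 7 genes were lower (42.9%, against 15.0% of all genes tested) and none was higher. Ndufv1, which encodes the subunit that binds NADH and flavin (ENSMUSG00000037916, chr19:4007384-4012806 of GRCm38, minus strand), had 120, 111 and 114 CPM in the controls and 76.2, 68.3 and 70.3 CPM in the KD-labelled libraries. Every KD-labelled library lay below every control, and the log2 fold change was -0.68 (SE 0.07, adjusted p = 0.000488, edgeR). Ndufs3, a core subunit of the arm that reaches into the matrix (chr2:90894634-90904827, minus strand), had 77.3, 72.2 and 75.9 CPM against 55.0, 50.7 and 49.6 CPM. Its groups lay apart as well (log2 fold change -0.54, SE 0.07, adjusted p = 0.00126, edgeR). Its exons overlap those of Kbtbd4 on the other strand, and a processed pseudogene (Gm12251) matches 75.7% of its transcript at 98.6% identity, so its count may hold reads of these genes. Ndufs8, which holds iron-sulfur clusters near the quinone site, had 40.7, 42.3 and 41.1 CPM against 33.6, 32.6 and 31.4 CPM (log2 fold change -0.35, SE 0.08, adjusted p = 0.0107, edgeR), and its groups did not overlap.

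No other core gene passed the test. Ndufs1, the largest core subunit, had a log2 fold change of -0.11 (SE 0.07) and Ndufs7 one of -0.08 (SE 0.09). Ndufv2, the partner of Ndufv1 in the NADH-oxidising module, had 80.4 ± 2.25 CPM (SD, n = 3) over control libraries and 80.4 ± 6.87 CPM (SD, n = 3) in the KD-labelled libraries. The fourth gene called lower in complex I, Ndufa10, encodes an accessory subunit of the membrane arm. It had 117, 117 and 111 CPM in the controls and 93.2, 83.2 and 88.2 CPM in the KD-labelled libraries, which lay apart (log2 fold change -0.38, SE 0.07, adjusted p = 0.0051, edgeR).

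Accessory subunits of the Ndufb family, which sit in the proton-pumping membrane arm, contributed 7 of the 11 higher calls in complex I. Of 10 Ndufb genes, 7 were higher and none was lower (Ndufb3, Ndufb4, Ndufb6, Ndufb7, Ndufb8, Ndufb9 and Ndufb10, with log2 fold changes from 0.28 to 0.58), with a summed level of 467, 451 and 441 CPM in the controls and 528, 545 and 590 CPM in the KD-labelled libraries. Ndufb7 (chr8:83566671-83571626, plus strand) had 54.9, 53.3 and 51.5 CPM against 74.5, 75.1 and 88.7 CPM. All 3 KD-labelled libraries lay above all controls (log2 fold change 0.58, SE 0.09, adjusted p = 0.0021, edgeR). Ndufb2, Ndufb5 and Ndufb11, the members of this family that were not called, had log2 fold changes of -0.10, -0.10 and -0.11. Ndufb8 was the called gene of this family whose groups overlapped. In the Ndufa family 2 of 14 genes were higher (14.3%) and 1 was lower (7.14%). In the Ndufs family 1 of 8 was higher (12.5%) and 2 were lower (25.0%). Over all genes tested, 15.6% were called higher and 15.0% lower, and the Ndufb family had 70.0% higher.

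Ndufs4, an accessory subunit of the matrix arm whose loss in mice and humans causes Leigh syndrome-like disease, was the Ndufs gene called higher. It had 35.6, 35.7 and 37.4 CPM in the controls and 47.7, 54.2 and 53.4 CPM in the KD-labelled libraries (log2 fold change 0.51, SE 0.08, adjusted p = 0.00253, edgeR), with no overlap. Ndufa4l2, a hypoxia-inducible relative of Ndufa4, had the highest log2 fold change of the members. Its level was low, at 2.28, 2.47 and 2.54 CPM in the controls and 4.62, 5.04 and 4.11 CPM in the KD-labelled libraries (log2 fold change 0.92, SE 0.20, adjusted p = 0.0111, edgeR). Its exons overlap those of Shmt2 on the other strand, and the sources used here do not say whether reads were counted by strand. On a scale per exon length (TPM, computed here), Ndufa4l2 made up 2.83% ± 0.148 (SD, n = 3) of the pair with Ndufa4 in the control group and 4.87% ± 0.524 (SD, n = 3) in the others. Ndufa4 itself, which was later found to be a subunit of complex IV, was not called (log2 fold change 0.11, SE 0.06).

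Complex II is succinate dehydrogenase, and 1 of its 4 genes was called, a share of 25.0% against 30.5% of all genes tested. Sdhd, a membrane anchor (chr9:50596357-50603812, minus strand), had 68.0, 65.4 and 61.6 CPM in the controls and 80.0, 79.8 and 86.9 CPM in the KD-labelled libraries. The groups lay apart (log2 fold change 0.34, SE 0.07, adjusted p = 0.00949, edgeR). Sdha, the flavoprotein, Sdhb, the iron-sulfur protein, and Sdhc, the other anchor, had log2 fold changes of 0.10 (SE 0.06), 0.05 (SE 0.07) and 0.03 (SE 0.07) and were not called.

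The genes of complex III that were called encode 4 small subunits and the Rieske protein. Uqcr11 had 43.3, 41.4 and 36.6 CPM in the controls and 54.2, 51.5 and 58.2 CPM in the KD-labelled libraries, which lay apart (log2 fold change 0.44, SE 0.09, adjusted p = 0.00837, edgeR). Uqcrh, the hinge protein that contacts cytochrome c1, had a log2 fold change of 0.38, and Uqcr10 and Uqcrq had 0.32 and 0.30, with adjusted p from 0.0144 to 0.0276 (edgeR). Uqcrfs1, the Rieske iron-sulfur protein, had 82.6, 79.0 and 84.1 CPM against 91.9, 94.7 and 96.9 CPM and was called (log2 fold change 0.21, SE 0.06, adjusted p = 0.0401, edgeR). It lost its call under DESeq2, without the count filter, with a replicate block and without each library in turn other than KD-labelled replicate 1. The core proteins Uqcrc1 and Uqcrc2 were higher in each KD-labelled library than in each control, with log2 fold changes of 0.21 (SE 0.07) and 0.25 (SE 0.09), but did not pass the test (adjusted p = 0.0648 and 0.0683, edgeR). Uqcrb, which has 3 processed pseudogenes, had the lowest value of the complex (log2 fold change 0.09, SE 0.10).

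The 5 genes called in complex IV encode isoforms found in most tissues. Cox4i1, the general isoform of the largest nuclear subunit, had 138, 126 and 123 CPM in the controls and 159, 155 and 172 CPM in the KD-labelled libraries (log2 fold change 0.33, SE 0.08, adjusted p = 0.0131, edgeR), with no overlap. Its exons overlap those of Emc8 on the other strand. Cox8a had 202, 203 and 191 CPM against 238, 238 and 272 CPM (log2 fold change 0.33, SE 0.08, adjusted p = 0.0132, edgeR). Cox5b, Cox7c and Cox6b1 were also called, with log2 fold changes of 0.32, 0.32 and 0.27. Cox6a1, which had the highest level of any nuclear member per length at 1621 ± 93.0 TPM (SD, n = 3) in the controls, had 314 ± 16.8 CPM in the controls and 318 ± 2.97 CPM in the KD-labelled libraries (log2 fold change 0.02, SE 0.06). Cox7a2, Cox7a2l and Cox7b had log2 fold changes of 0.14, 0.13 and 0.12 and were not called.

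The tissue-restricted isoforms of complex IV were rare. Cox6a2, which is known from heart and skeletal muscle, made up 0.661% ± 0.0583 (SD, n = 3) of the TPM of Cox6a1 and Cox6a2 in the control group and 1.03% ± 0.112 (SD, n = 3) in the other group, without a call (log2 fold change 0.66, SE 0.23, adjusted p = 0.0655, edgeR). The share of Cox4i2, the lung and hypoxia isoform, in the pair with Cox4i1 was 2.05% ± 0.471 and 1.48% ± 0.750, and that of Cox7a1, the muscle isoform, in the pair with Cox7a2 was 3.73% ± 0.676 and 2.73% ± 0.305, with overlap in each. Cox6b2, the testis isoform, took 7.99% ± 0.353 and 7.62% ± 0.219 of its pair with Cox6b1. Cox7b2 had at most 3 counts in a library, and the 13 counts of Cox8c all lay in control replicate 2.

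Cox8b, the muscle isoform of Cox8a, varied among libraries of the same group. It had 1.05, 0.117 and 1.52 CPM in control replicates 1 to 3 and 1.16, 0.112 and 0 CPM in the KD-labelled libraries, so that control 1, control 3 and KD-labelled replicate 1 were high and the rest were at or near 0. The summed choroid plexus markers Ttr, Folr1, Kl and Kcnj13 were 1636, 409 and 4465 CPM in the controls and 4997, 107 and 26.5 CPM in the others, with the same 3 libraries highest. The striated muscle markers Ckm, Acta1, Myh4 and Tnnt3 summed to 3.09 to 6.49 CPM in the 6 libraries. Whether choroid plexus tissue in a sample set the level of Cox8b was not tested.

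In the catalytic head of the ATP synthase, 4 of the 5 F1 genes were called higher (80.0%, against 15.6% of all genes tested) and none was lower. Atp5b, the catalytic beta subunit and the nuclear member with the most counts, had 901, 856 and 911 CPM in the controls and 1039, 1120 and 1164 CPM in the KD-labelled libraries (log2 fold change 0.32, SE 0.07, adjusted p = 0.0134, edgeR). The alpha subunit gene Atp5a1 had 700, 669 and 712 CPM against 824, 892 and 897 CPM (log2 fold change 0.33, SE 0.07, adjusted p = 0.00949, edgeR). Neither gene overlapped between the groups. Atp5c1, the rotating gamma subunit, had 154, 145 and 156 CPM against 186, 193 and 210 CPM (log2 fold change 0.37, SE 0.07, adjusted p = 0.00655, edgeR), and Atp5e, the epsilon subunit, 37.4 ± 1.83 CPM (SD, n = 3) against 46.1 ± 1.18 CPM (SD, n = 3) (log2 fold change 0.30, SE 0.08). The delta subunit gene Atp5d was not called (log2 fold change 0.12, SE 0.07, adjusted p = 0.208, edgeR).

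The peripheral stalk, which holds the head still, was called for 2 of 4 genes. Atp5o, the oligomycin sensitivity protein, had 68.8, 58.6 and 64.2 CPM in the controls and 78.5, 82.6 and 94.8 CPM in the KD-labelled libraries, with no overlap (log2 fold change 0.42, SE 0.10, adjusted p = 0.0128, edgeR). Atp5h had a log2 fold change of 0.29 (SE 0.07, adjusted p = 0.0167, edgeR). Atp5o has 1 near-identical processed pseudogene and Atp5h has 3. Atp5f1 and Atp5j had log2 fold changes of 0.07 (SE 0.07) and 0.03 (SE 0.07) and were not called. Atp5s, a coupling factor rather than a stable subunit, had 12.9, 13.6 and 15.1 CPM against 12.5, 7.50 and 6.43 CPM, the lowest log2 fold change of complex V (-0.65, SE 0.24, adjusted p = 0.0768, edgeR).

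The proton-carrying c-ring is built from 1 mature protein that is encoded by 3 genes. Of these 2 were called (66.7%, against 30.5% of all genes tested). Atp5g2 had 48.1, 44.8 and 45.3 CPM in the controls and 60.7, 59.4 and 63.1 CPM in the KD-labelled libraries (log2 fold change 0.41, SE 0.07, adjusted p = 0.00371, edgeR). Atp5g3 had 139, 130 and 134 CPM against 169, 164 and 176 CPM (log2 fold change 0.34, SE 0.06, adjusted p = 0.00592, edgeR). Atp5g1 overlapped between the groups, at 96.3, 93.8 and 94.1 CPM and 105, 93.7 and 101 CPM (log2 fold change 0.07, SE 0.07, adjusted p = 0.445, edgeR). Per length, Atp5g3 gave 56.8% ± 0.261 (SD, n = 3) of the c-ring TPM in the controls and 57.8% ± 0.343 in the others, Atp5g2 25.4% ± 0.240 and 27.1% ± 0.277, and Atp5g1 17.8% ± 0.305 and 15.1% ± 0.583. The share of Atp5g1 was lower in each KD-labelled library than in each control. This difference between the genes was not tested.

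**Figure D3:**
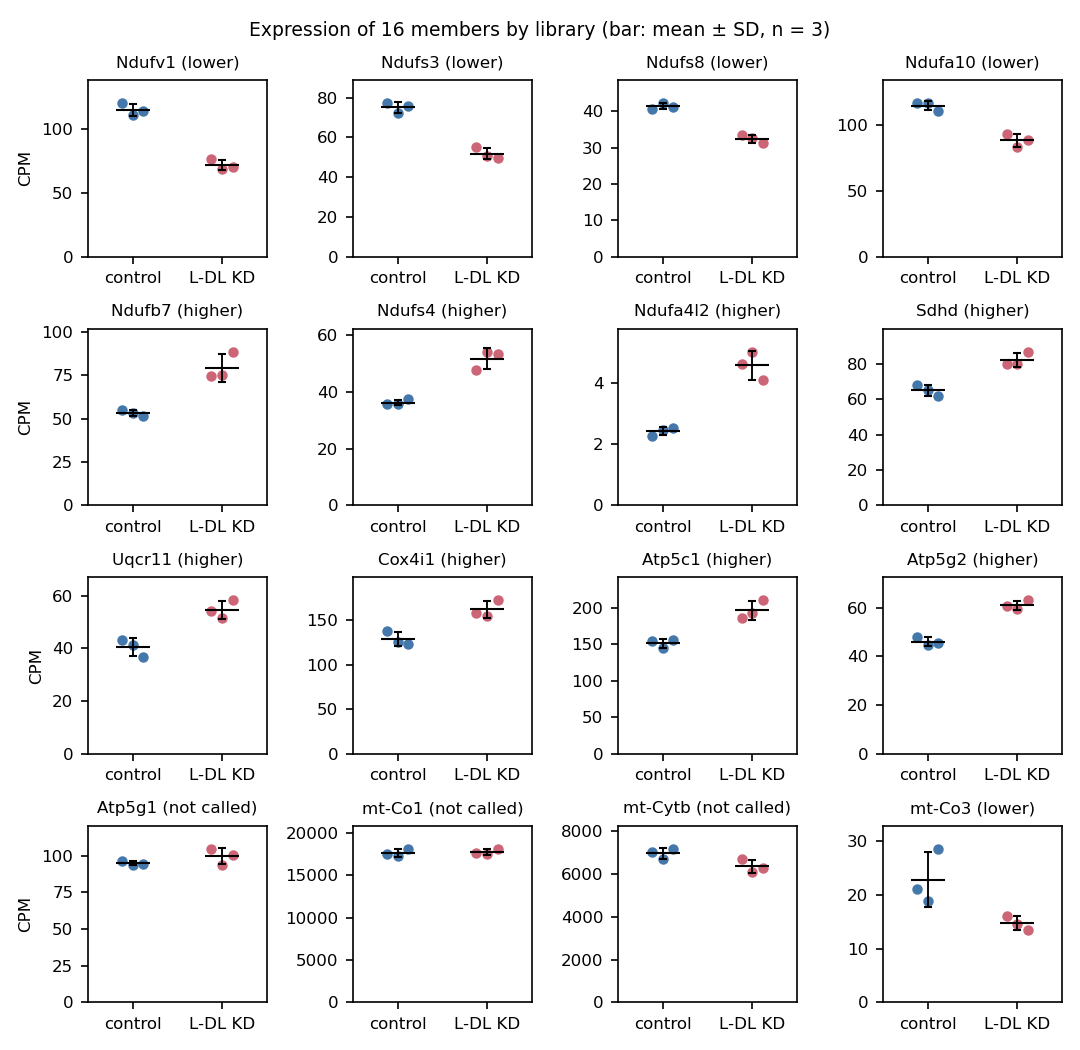
CPM of 16 members in each library, from 0, with the mean and SD of 3 libraries per group and the call of the test in each title. Ndufv1, Ndufs3, Ndufs8, Ndufa10 and mt-Co3 lie lower in every KD-labelled library, Atp5g1, mt-Co1 and mt-Cytb overlap, and the other 8 lie higher.

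Of the 7 mitochondrial genes with a mean of at least 1000 counts, none was called. mt-Co1, the catalytic subunit of complex IV and the gene with the highest level per length of all members (41255 ± 795 TPM in the controls, SD, n = 3), had 17504, 17232 and 18124 CPM in the controls and 17606, 17474 and 18100 CPM in the KD-labelled libraries. The groups overlapped, and the log2 fold change was 0.01 (SE 0.07, adjusted p = 0.938, edgeR). mt-Cytb, the cytochrome b of complex III, had 7035, 6686 and 7181 CPM against 6687, 6090 and 6310 CPM (log2 fold change -0.13, SE 0.07, adjusted p = 0.219, edgeR), where the highest KD-labelled library lay just above the lowest control. The complex I genes mt-Nd1, mt-Nd2, mt-Nd4, mt-Nd5 and mt-Nd6 had log2 fold changes of 0.04, -0.04, -0.15, -0.04 and -0.13 with SE from 0.07 to 0.09. mt-Nd5 and mt-Nd6 overlap on opposite strands, and mt-Co1 and mt-Nd4 have nuclear copies with a mean of 148 and 372 counts per library.

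The other 6 mitochondrial genes had fewer than 1000 counts on average, and their counts may not stand for transcript levels. mt-Co2 had 45.9 ± 11.5 CPM (SD, n = 3) in the controls, mt-Atp6 25.4 ± 2.03, mt-Co3 22.9 ± 5.09, mt-Nd3 2.07 ± 0.354, mt-Nd4l 1.68 ± 0.641 and mt-Atp8 0.306 ± 0.163 CPM. Nuclear pseudogenes on chromosome 1 match the transcripts of mt-Co2, mt-Co3, mt-Atp6 and mt-Nd4l at 100% identity over 99.0% to 99.9% of their length, and that of mt-Nd3 at 99.7%. The annotated exons of mt-Atp8, mt-Atp6 and mt-Co3 overlap, as do those of mt-Nd4l and mt-Nd4. mt-Co3 was the mitochondrial gene that was called, with 21.2, 18.9 and 28.6 CPM in the controls and 16.1, 14.7 and 13.6 CPM in the KD-labelled libraries (log2 fold change -0.63, SE 0.17, adjusted p = 0.025, edgeR). With the counts of its copy Gm28437 added, an alternative chosen after the data were seen, its log2 fold change was -0.42 (adjusted p = 0.0279, edgeR). mt-Co3 lost its call without control replicate 1 or 3 and without KD-labelled replicate 2 or 3. For mt-Atp6, the value was -0.53 (SE 0.22, adjusted p = 0.0988, edgeR), and mt-Co2 and mt-Nd4l had -0.37 (SE 0.18) and -0.26 (SE 0.38).

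The ribosomal RNAs of the mitochondrion, which are transcribed from the same genome but are not protein-coding, were lower. mt-Rnr1 had 48949, 53716 and 49212 counts in the controls and 26157, 31767 and 33980 counts in the KD-labelled libraries (log2 fold change -0.83, SE 0.12, adjusted p = 0.0019, edgeR), and mt-Rnr2 had 59567, 67778 and 61641 against 40024, 46495 and 53886 counts (log2 fold change -0.53, SE 0.13, adjusted p = 0.0177, edgeR). Neither overlapped between the groups. The libraries were made from RNA selected by oligo(dT), and the part of that step in these counts was not tested.

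Junction counts gave a second readout of the same genes, namely how often a segment was included in the spliced RNA. The splicing table listed 165 events in 54 member genes. Of these, 97 events in 44 genes had enough junction reads to be tested. None passed an adjusted p of 0.05 in edgeR's quasi-likelihood test or an unadjusted p of 0.001. An unadjusted p under 0.05 was found for 14 events in 10 genes. Those in Cox6b2 share the same skipping reads (0, 0 and 0 against 0, 2 and 7), so the events are not independent. Over all 18829 events tested, 0.255% passed the adjusted threshold, 0.977% the unadjusted threshold of 0.001 and 13.3% the unadjusted threshold of 0.05, and the share of member events at the last threshold was 14.4%. limma on the log2 ratio of the forms also called no member event at either stricter threshold and had 9 at an unadjusted p under 0.05. The splicing table gives no replicate numbers, so its columns are named in file order.

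Ndufa6, an accessory subunit of the matrix arm of complex I, held the member event with the smallest p. The event is the skipping of its 116 nt coding exon 2 (chr15:82350979-82351094 of GRCm38, minus strand). This exon is not a multiple of 3 bases long. It is shown in capitals between the 20 bases of the flanking exons.

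Ndufa6 exon 2: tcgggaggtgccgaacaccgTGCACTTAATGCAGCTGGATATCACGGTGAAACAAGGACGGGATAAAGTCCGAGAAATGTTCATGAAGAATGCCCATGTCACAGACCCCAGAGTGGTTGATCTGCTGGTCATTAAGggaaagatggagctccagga

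Junction reads that skipped this exon numbered 3, 0 and 5 in the control columns and 24, 16 and 15 in the columns of the KD-labelled libraries, beside 801 to 909 and 894 to 1035 reads of inclusion. Percent spliced in (PSI) was 99.4% ± 0.547 (SD, n = 3) and 96.7% ± 0.887 (SD, n = 3), and the groups did not overlap (unadjusted p = 0.00137, adjusted p = 0.114, edgeR). The summed level of Ndufa6 did not differ by the test (log2 fold change 0.06, SE 0.08).

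Atp5c1 has an alternative 37 nt exon near its end (chr2:10056770-10056806, minus strand), which is known to be skipped in striated muscle. Annotated transcripts with and without the exon end their coding sequence after the same bases, and the form with the exon has 1 more codon before its stop, with coding lengths of 894 and 891 bases. The last 24 coding bases of both forms, stop codon included, are shown with the bases after the junction in capitals.

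Atp5c1 with the exon: tctggggctgctgctctGGATTAA
Atp5c1 without the exon: atctctggggctgctgctctGTAA

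PSI of this exon was 92.8, 96.1 and 93.6% in the control columns and 90.4, 85.8 and 82.0% in those of the KD-labelled libraries. The groups lay apart, with a difference of -8.15 percentage points between their means, and the unadjusted p was 0.00592 (adjusted p = 0.194, edgeR). Skipping junctions had 22, 9 and 14 reads against 30, 41 and 57, while inclusion had 354, 279 and 256 reads against 350, 307 and 323.

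Ndufv1, the core gene with the largest fall, had a retained intron of 73 bases (chr19:4011273-4011345, minus strand) among the member events with an unadjusted p under 0.05. The intron is shown in capitals with the flanking 20 exon bases, from an annotated transcript that keeps it, and begins with GT and ends with AG.

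Ndufv1 intron: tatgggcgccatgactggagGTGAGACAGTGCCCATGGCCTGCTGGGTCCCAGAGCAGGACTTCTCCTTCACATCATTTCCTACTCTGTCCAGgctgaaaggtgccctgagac

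Its PSI was 4.99, 5.72 and 3.84% in the control columns and 7.03, 9.80 and 10.5% in those of the KD-labelled libraries, without overlap (unadjusted p = 0.0203, adjusted p = 0.296, edgeR). Reads of the spliced form numbered 334, 378 and 304 against 223, 211 and 196, and reads of the retained form 26, 34 and 18 against 25, 34 and 34. Cox7a2l and Cox4i1 were the next genes by p. An exon of 129 nt in Cox7a2l had a PSI of 98.7% ± 0.279 and 97.1% ± 1.39 (unadjusted p = 0.0216), with overlap, and one of 142 nt in Cox4i1 had 1, 0 and 1 inclusion reads against 13, 3 and 3 (unadjusted p = 0.0254). Neither passed after adjustment in edgeR (adjusted p = 0.303 and 0.315).

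**Figure D4:**
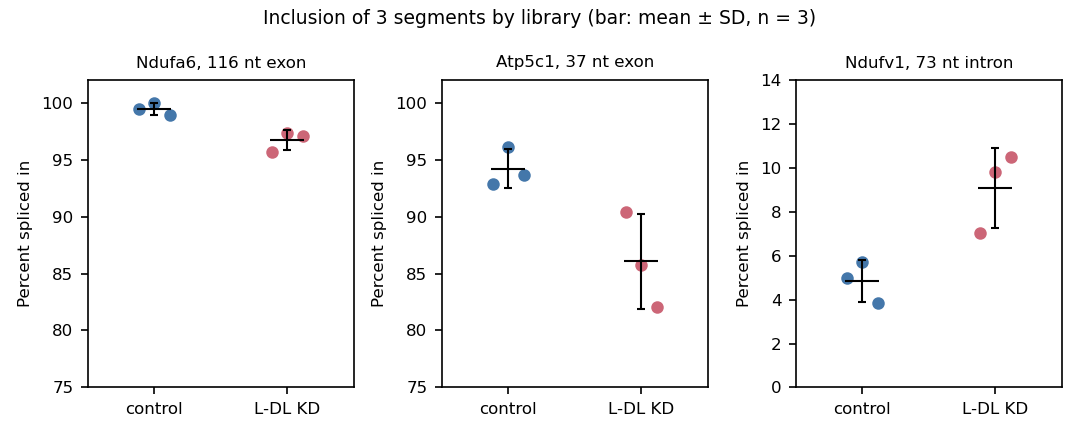
Percent spliced in of the Ndufa6 exon, the Atp5c1 exon and the Ndufv1 intron in each library column, with the mean and SD of 3 per group. The axes of the exons do not begin at 0, and the groups do not overlap in any of the 3 panels while none passed the adjusted threshold.

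Promoters of nuclear members were read from RefSeq (GRCm38.p6), as the 250 bases before to the 50 bases after each start site, for 68 of the 84 genes. They were searched on both strands for the letters of motifs that are known from respiratory genes, and no matches of different motifs overlapped in a member window. The 10 letters of NRF1, a palindrome, stood in 5 of 68 members (7.35%) and in 1.07% of all 27025 genes with a promoter in the table. The 10 letters of YY1 stood in 7.35% of members and 0.995% of all genes, and TCAAGGTCA of the estrogen-related receptor alpha in 2.94% and 0.466%. For CCGGAAGT of the ETS family (GABPA) the shares were 7.35% and 4.31%, and for CCAAT 44.1% and 41.1%. Over the 12650 genes that were tested for expression and have a promoter in the table, the NRF1 letters stood in 2.01%, the YY1 letters in 1.94%, the receptor letters in 0.324%, the ETS letters in 7.78% and CCAAT in 42.3%.

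The matches did not follow the calls in 1 direction. Of the 5 members with the NRF1 letters, 1 was called higher (Atp5g2), and of the 5 with the YY1 letters 1 was (Ndufs4). Both members with the receptor letters, Sdhd and Atp5g3, were called higher. Of the 5 with the ETS letters, 4 were called higher (Uqcr11, Uqcrh, Cox8a and Atp5h) and 1 was called lower (Ndufs3). A match is a run of letters and not a bound site. The promoters of Atp5g2, Ndufs4, Atp5g3, Sdhd and Ndufs3 are shown with the matched letters in capitals, since they spell out the NRF1, YY1, receptor and ETS letters and stand for both directions of change. The windows are chr15:102670998-102671297, chr13:114388045-114388344, chr2:73911277-73911576, chr9:50603800-50604099 and chr2:90904672-90904971 in this order, each on the minus strand, and the capitals of Atp5g3, Sdhd and Ndufs3 are the reverse complement of the letters given.

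Atp5g2, NRF1: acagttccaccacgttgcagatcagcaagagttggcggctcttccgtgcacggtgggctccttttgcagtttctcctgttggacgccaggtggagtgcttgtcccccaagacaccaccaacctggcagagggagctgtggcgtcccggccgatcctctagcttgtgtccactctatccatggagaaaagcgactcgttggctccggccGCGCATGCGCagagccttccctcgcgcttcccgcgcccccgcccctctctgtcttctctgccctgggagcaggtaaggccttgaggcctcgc
Ndufs4, YY1: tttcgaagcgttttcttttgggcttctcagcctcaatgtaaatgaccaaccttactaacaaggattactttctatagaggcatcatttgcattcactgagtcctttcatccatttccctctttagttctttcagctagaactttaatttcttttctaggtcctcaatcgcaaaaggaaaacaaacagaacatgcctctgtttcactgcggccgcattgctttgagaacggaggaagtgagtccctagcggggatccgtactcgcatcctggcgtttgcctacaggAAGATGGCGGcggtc
Atp5g3, receptor: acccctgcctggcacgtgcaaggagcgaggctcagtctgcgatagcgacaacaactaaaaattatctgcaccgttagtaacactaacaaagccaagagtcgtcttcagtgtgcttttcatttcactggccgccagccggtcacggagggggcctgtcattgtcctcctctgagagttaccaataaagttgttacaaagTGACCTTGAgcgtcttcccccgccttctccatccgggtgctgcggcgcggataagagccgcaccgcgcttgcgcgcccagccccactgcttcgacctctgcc
Sdhd, receptor: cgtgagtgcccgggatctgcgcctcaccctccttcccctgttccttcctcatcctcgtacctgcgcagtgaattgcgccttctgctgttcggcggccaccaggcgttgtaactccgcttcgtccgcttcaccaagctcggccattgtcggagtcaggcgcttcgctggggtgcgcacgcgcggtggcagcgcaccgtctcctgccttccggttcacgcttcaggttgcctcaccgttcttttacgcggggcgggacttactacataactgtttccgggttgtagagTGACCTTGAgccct
Ndufs3, ETS: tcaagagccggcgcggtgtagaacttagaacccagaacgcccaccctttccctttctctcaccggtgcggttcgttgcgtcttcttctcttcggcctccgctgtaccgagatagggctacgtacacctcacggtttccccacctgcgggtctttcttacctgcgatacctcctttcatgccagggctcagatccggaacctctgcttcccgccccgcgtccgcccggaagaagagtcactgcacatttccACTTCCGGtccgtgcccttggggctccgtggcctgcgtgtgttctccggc

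Genes around the respiratory chain were read in lists by role. Over all genes tested, 15.6% were called higher and 15.0% lower. Of 7 carriers and subunits that the symbol rule leaves out, 1 was higher (14.3%) and none was lower. The higher one was Usmg5, a small subunit of the ATP synthase (log2 fold change 0.32). Cyc1, the cytochrome c1 of complex III, had 0.18 (SE 0.07) and Cycs, cytochrome c, 0.09 (SE 0.06), without a call. Of the 45 assembly factors tested, 1 was higher (2.22%) and 5 were lower (11.1%). Uqcc2, which helps to build complex III, was higher (log2 fold change 0.46, SE 0.10, adjusted p = 0.0111, edgeR), while Uqcc1, its partner, was lower (-0.48, SE 0.08, adjusted p = 0.00363, edgeR). The other lower ones were Ttc19 and Lyrm7 of complex III and Ndufaf5 and Tmem126b of complex I. Median log2 fold changes were 0.18 for the carriers and -0.04 for the assembly factors, against 0.01 over all genes.

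Of 17 genes of the tricarboxylic acid cycle and pyruvate dehydrogenase, 2 were higher (Mdh2 and Pdhb, log2 fold changes 0.30 and 0.33) and 1 was lower (Sucla2, -0.57). These shares were 11.8% and 5.88%, against 15.6% and 15.0% of all genes tested. The genes of mitochondrial DNA maintenance and expression had 1 of 15 higher (6.67%) and none lower. The higher one was Tfam, which packs and transcribes mitochondrial DNA (31.9 to 38.1 CPM on average, log2 fold change 0.26, SE 0.08, adjusted p = 0.0408, edgeR). Mitochondrial ribosomal protein genes had 4 of 77 higher and 4 lower (5.19% each) with a median of 0.02. Cytosolic ribosomal protein genes had 53 of 81 higher (65.4%) and none lower with a median of 0.34. Glycolytic genes had 1 of 15 higher (Pfkm) and 6 lower, among them Aldoc, which is also an astrocyte marker (-0.61), and Hk1, the brain hexokinase (-0.45).

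Among the 10 regulators of respiratory genes, 1 was higher and 3 were lower, beside 15.6% higher and 15.0% lower of all genes tested. Whether the counts for these 10 genes differ from those shares was not tested. Ppargc1a, the coactivator PGC-1alpha, went from 41.9 to 31.7 CPM on average (log2 fold change -0.40, SE 0.12, adjusted p = 0.0324, edgeR) and Esrrg, an estrogen-related receptor, from 13.7 to 5.44 CPM (-1.33, SE 0.31, adjusted p = 0.0133, edgeR). Gabpb1, a subunit of the ETS factor GABP, was lower as well (-0.39, SE 0.11, adjusted p = 0.0302, edgeR). Pprc1, a relative of PGC-1alpha, was higher (0.43, SE 0.07, adjusted p = 0.0039, edgeR). Nrf1, Gabpa, Esrra, Yy1, Ppargc1b and Perm1 had log2 fold changes of -0.19, 0.01, 0.12, 0.01, -0.08 and -0.22 and were not called.

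Other measured properties moved beside the members. Nuclear members had a median exon length of 1522.5 nt, and 64 of the 82 tested lay among the shortest genes, those of at most 2893 nt. There the median log2 fold change was 0.04 over all genes and 0.21 over the members. For genes above that length and up to 5433 nt, it was 0.007 over all genes and 0.074 over 15 members. For longer genes it was -0.023 over all genes and -0.102 over 3 members. Near-identical copies, at least 95% identical over at least 50% of a transcript, were found for 7 of 84 nuclear and 8 of 13 mitochondrial members. Among other members called, Atp5a1, Ndufb6 and Atp5o share exonic bases with genes on the other strand (Haus1, Smim27 and D430001F17Rik), so their counts may hold reads of these as well. For the markers below, the share over all genes tested was 15.6% called higher and 15.0% called lower. Endothelium markers had 2 of 5 higher and none lower, and oligodendrocyte markers 1 of 6 higher. Astrocyte markers had 1 of 8 higher and 4 lower, and interneuron markers 4 of 5 lower. CA1 markers had 3 of 4 lower and dentate granule markers 2 of 4 lower. The part of each in the members' changes was not tested.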

How the data were processed

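Hippocampal RNA in 6 libraries (3 control, 3 L-DL KD) was read as 150 nt pairs. Counts were deposited without normalization, 1 whole number for each Ensembl gene and library, beside the junction counts of rMATS. The submitters' processing notes name HISAT2 (version 2.1.0), Bowtie (version 1.1.2) and HTSeq (version 0.6.1) with mm10. The strand setting of counting was not given in the sources used here. Other columns of the deposited rMATS table (PSI, p-values and FDR) were not used, and the order of its groups was taken from the study's definition of the PSI change. Member genes and gene lists were chosen with earlier results of these data known.

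TMM-scaled CPM was computed, and edgeR (version 4.0.16, R version 4.3.3) gave the quasi-likelihood test. Genes needed 10 or more counts in 3 or more libraries, which left 17621, and the threshold was an adjusted p (Benjamini-Hochberg, over all of these) under 0.05. TPM used the union of exons of GENCODE M21, which held 52403 of 52550 gene IDs. Junction counts of both forms were tested by edgeR with an effect for each library, for events whose mean over libraries reached 20 counts, with 1 or more of each form. Copies were found with BLAST (version 2.17.0). Tables were made in Python (version 3.11.15) with pandas (version 2.3.3). Between 16052529 and 17913064 counts per library fell on genes. Scripts for both fits were tested on simulated data. Alternatives were scaling by library size or without mitochondrial genes, DESeq2 (version 1.42.0), other filters, a replicate block, limma (version 3.58.1, pseudocount 0.5) for junctions, and leaving out each library. Nothing states that libraries of a group came from separate extractions, so p-values cover the spread between these samples. Precision is limited by 3 libraries per group.

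The genes named are all mitochondrial members, the Sdh genes, the nuclear core of complex I, Uqcrc1, Uqcrc2, Uqcrfs1, the ATP synthase head, stalk and c-ring genes, tissue isoforms, the 2 highest and 2 lowest log2 fold changes of each nuclear complex, and up to 5 genes with splicing events at an unadjusted p under 0.05. Other members and list genes were named after their values were seen. The result of 1 gene covered by this rule is not reported here.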

Additional observations from a re-analysis of the deposited data

How the results depend on the processing

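The count of members called higher was 31 and ranged from 13 to 34 with 1 library left out. It was 13 without control replicate 2 or 3, 18 without control replicate 1 and 34 without KD-labelled replicate 1. The count called lower was 5, from 4 to 10, with 10 without that last library. Over all genes tested, the share called higher was 15.6% and ranged from 10.19% to 18.76% with 1 library left out. The share called lower was 15.0% and ranged from 9.66% to 18.79%. Between 30 and 34 members were called higher and 5 to 7 lower with scaling by library size, mitochondrial genes left out of the scaling, no count filter, a filter on CPM, DESeq2, or the counts of near-identical copies added to their member, the last chosen after the data were seen. With the replicate number as a block, 22 were called higher and 6 lower, beside 13.1% and 13.2% of all genes tested. The labels give no meaning to shared numbers. The deviations of same-numbered libraries correlated at 0.05, 0.13 and -0.11. Control replicates 1 and 2 correlated best with the library of the same number, and control replicate 3 with replicate 1 of the other group. Correlations this weak cannot show whether libraries were paired. The median log2 fold change of nuclear members (0.15) was 0.19 with library size scaling, 0.18 with copies added and 0.13 to 0.20 with 1 library left out. With library size scaling the median of complex I was 0.084 and that of complex II 0.11. Leaving out 1 library gave 0.063 to 0.106 for complex II and 0.13 to 0.21 for complex IV. The ratio of summed CPM of complex II (1.08) was 1.10 with library size scaling or with mitochondrial genes out of the total. No direction among these reversed. All of the 9 higher and 3 lower calls that held with each library left out also held under the other alternatives. No member splicing event passed an adjusted p of 0.05 in edgeR or limma, in any leave-out or with a lower count minimum, and 5 to 14 had an unadjusted p under 0.05 with 1 column left out. With 3 libraries per group, all but large differences may have been missed in genes at a few CPM, among them some mitochondrial genes.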
